A study of Mus musculus with 7 samples.

Results

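The interferon regulatory factors are a family of transcription factors, and 8 of their genes, Irf1, Irf2, Irf3, Irf4, Irf5, Irf7, Irf8 and Irf9, were followed across 7 Affymetrix arrays of mouse macrophages. The members were listed by name, and each was read from the probe set that carried its symbol alone and had the highest mean over the arrays. They made up 8 of 18193 genes and 14 of 45101 probe sets. Irf3 had 4 probe sets, Irf4, Irf5 and Irf8 had 2 each, and the others had 1.

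The macrophages were grown from mouse bone marrow, and the labels give neither strain, genotype, sex nor age. Each culture was kept for 24 h without ligand (naive), with MDP or with Pam3CSK4, and then for 3 h without ligand, with MDP or with Pam3CSK4. MDP is muramyl dipeptide, a fragment of bacterial peptidoglycan sensed inside the cell by the NOD2 receptor, and Pam3CSK4 is a synthetic lipopeptide sensed at the surface by Toll-like receptors. Naive cells gave 3 of the 7 groups (unstimulated, given MDP, given Pam3CSK4), and pretreated cells 4, written as pretreatment before second ligand: MDP before MDP, MDP before Pam3CSK4, Pam3CSK4 before MDP, and Pam3CSK4 before Pam3CSK4. Doses are written in the labels as 10 mg/ml MDP and 1 mg/ml Pam3CSK4, a unit that could not be checked. The study asked which genes each ligand induced and which of them stood lower in cells that had met a ligand before.

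Each group had 1 array, so no spread between cultures can be estimated and every difference below has no replicate check. No culture was pretreated and then left without a second ligand, so the level at the end of the 24 h and the response in the next 3 h cannot be told apart. In whole-culture RNA, more transcript per cell and more cells with the transcript cannot be told apart either. Values are log2 expression and differences are log2 differences between 2 arrays, unless a fold is given. A 2-fold difference was taken as the threshold, and the share of all genes past it is given beside the members. Array medians lay between 5.48 and 5.55, and lower values were treated as close to background: where 1 of a pair was lower, the difference is given as a bound, counted from the median.

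Interferon regulatory factors share a DNA-binding domain that reads repeats of the letters GAAA in the promoters of interferon-stimulated genes. Irf3 and Irf7 are switched on by phosphorylation and start the transcription of type I interferons. Secreted interferon then acts through its receptor on a complex called ISGF3, which contains Irf9 and Stat2 and turns on antiviral genes and, among them, Irf7 itself. Irf1 is an early response gene of inflammatory and interferon signalling, and Irf2 competes with it for the same sites. Irf4 and Irf8 act with the myeloid factor Spi1, and Irf5 supports the transcription of inflammatory cytokine genes downstream of Toll-like receptors.

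The labelled cell type was checked on its markers, and 9 of 9 macrophage genes lay above the array median on every array. Among them Csf1r was between 14.04 and 14.34, and Spi1 between 12.28 and 13.13. The list was not steady as a whole: Mertk, a receptor for apoptotic cells, was 9.89 in unstimulated cells and 7.60 in naive cells with Pam3CSK4. After Pam3CSK4 pretreatment, where Irf7 was highest, 2 of the 9 were at least 2-fold above unstimulated, Itgam (10.45 against 11.72 and 11.72) and Fcgr1 (12.38 against 13.43 and 13.51). Of 7 neutrophil markers 6 were above the median on all arrays, and the summed level of the list ran from 59.1 to 61.9. Within that list S100a8 was 11.03 in unstimulated cells and 12.15 and 12.13 after Pam3CSK4 pretreatment, past 2-fold, while Ltf was 7.57 and then 6.88 and 6.41. The 5 markers of plasmacytoid dendritic cells, which carry much Irf7 and Irf8, summed to 31.6 in unstimulated cells, 31.4 and 31.5 after MDP pretreatment and 30.3 and 30.5 after Pam3CSK4 pretreatment, and Siglech ran from 5.27 to 5.61. The 5 stromal markers summed to 26.8 to 27.1 on the first 5 arrays and to 29.2 and 28.9 after Pam3CSK4 pretreatment. Of the 5 only Dcn was 2-fold above unstimulated there (6.47 against 8.34 and 8.03). What part these differences have in the levels of the members was not tested. On the array of Pam3CSK4 before Pam3CSK4 the median signal for 18S ribosomal RNA was 2.35 above unstimulated, against at most 0.72 elsewhere. That array differed by 2-fold from the array of Pam3CSK4 before MDP in 1 gene on the lower side (0.0055%) and 0 genes on the higher side (0.0%), and 0 of the 8 members did.

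**Figure D1:**
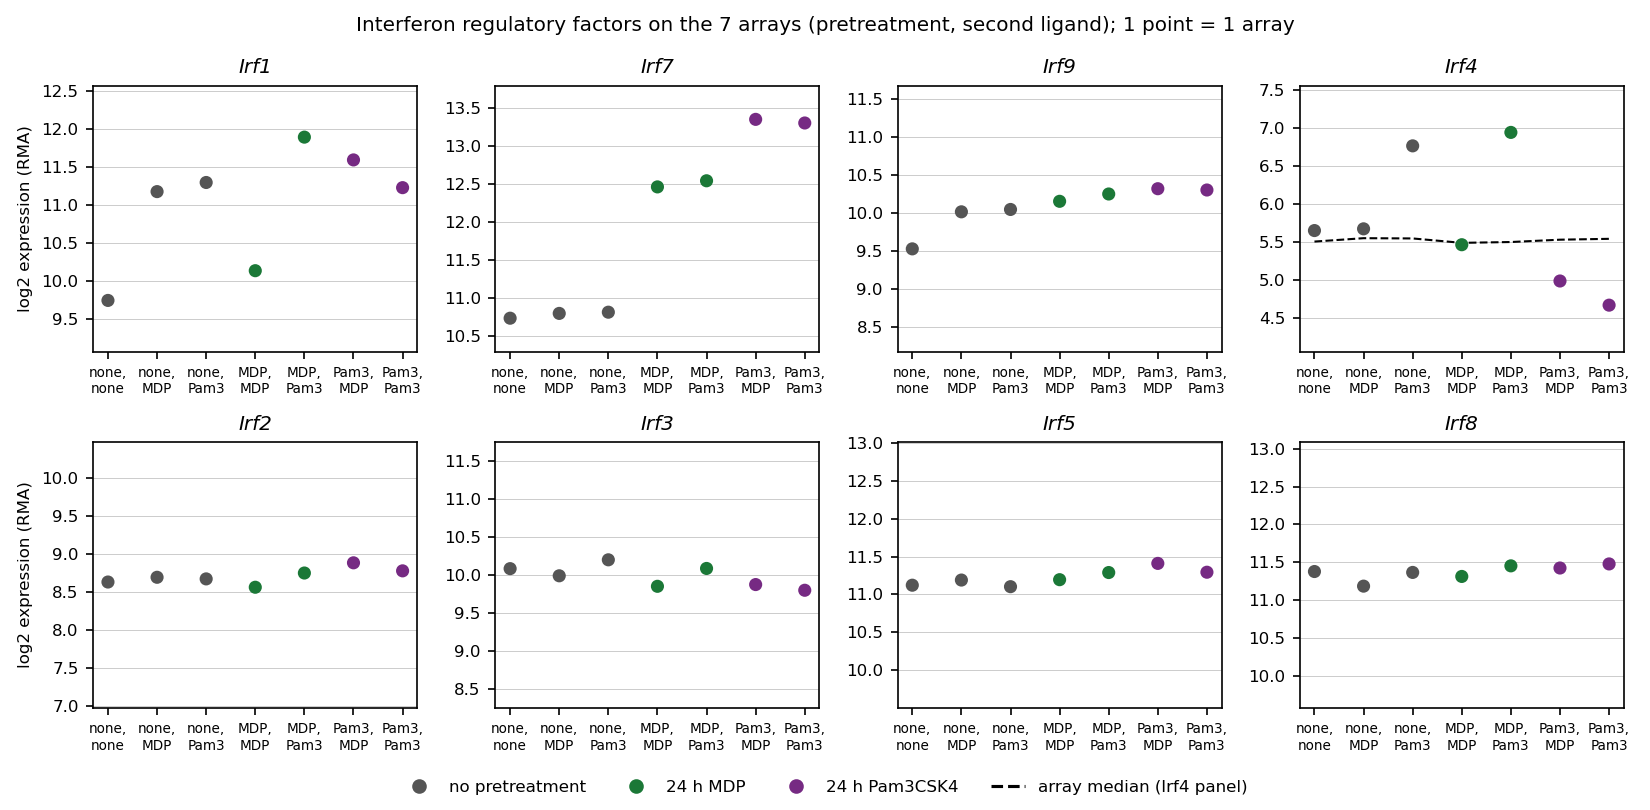
Log2 expression (vertical axis, 3.5 units high in every panel) of the 8 genes on the 7 arrays, with pretreatment and second ligand on the horizontal axis; each point is 1 array and no error can be given. Irf7 lies in 3 steps that went with the pretreatment (10.7 to 10.8, 12.5, and 13.3). Irf1 is low in unstimulated cells and in MDP before MDP. Irf4 is high on the arrays of naive or MDP-pretreated cells given Pam3CSK4, and Irf2, Irf3, Irf5 and Irf8 have ranges between 0.29 and 0.40.

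Irf7, the master regulator of type I interferon production, followed the 24 h pretreatment and not the ligand given for the last 3 h. Its level was 10.73 in unstimulated cells, 10.79 in naive cells with MDP and 10.81 in naive cells with Pam3CSK4. It was 12.46 in MDP before MDP and 12.54 in MDP before Pam3CSK4. After Pam3CSK4 pretreatment it was 13.35 with MDP and 13.30 with Pam3CSK4. The 3 naive arrays were thus lowest, the 2 arrays pretreated with MDP intermediate and the 2 pretreated with Pam3CSK4 highest. How many of all genes lie in the same order was not counted.

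Against naive cells given the same second ligand, Irf7 after MDP pretreatment was 3.18-fold higher under MDP (1.67) and 3.32-fold higher under Pam3CSK4 (1.73). After Pam3CSK4 pretreatment it was 5.89-fold higher under MDP (2.56) and 5.63-fold higher under Pam3CSK4 (2.49). Each pretreatment was thus set against naive cells under 2 second ligands, and the 2 differences lay 0.06 apart for both pretreatments. The 2 pairs of arrays share no array, but they differ in second ligand and are not replicates. Their gap restates the second-ligand differences that follow and adds nothing to them. Exchanging MDP for Pam3CSK4 as second ligand went with a difference in Irf7 of 0.02 in naive cells, 0.08 after MDP and -0.05 after Pam3CSK4. Differences of at least these sizes were reached by 88.1%, 65.0% and 64.1% of genes, so small ones were not particular to Irf7. Pam3CSK4 pretreatment stood above MDP pretreatment by 0.89 under MDP and 0.76 under Pam3CSK4, both short of 2-fold. With the arrays centred on housekeeping genes the first of these was 1.00.

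Irf7 was the 1 member at least 2-fold higher in each of the 4 comparisons of pretreated with naive cells. Among all genes 0.385% were at least 2-fold higher in MDP before MDP than in naive cells with MDP, and 0.297% in MDP before Pam3CSK4 than in naive cells with Pam3CSK4. After Pam3CSK4 pretreatment the shares were 2.14% under MDP and 2.41% under Pam3CSK4. On the lower side 0 of 8 members lay in MDP before Pam3CSK4, beside 0.022% of genes, and 0 in Pam3CSK4 before MDP, beside 1.71%. In all 4 comparisons at once 19 genes were 2-fold higher, or 0.104%. Over the 7 arrays the range of Irf7 was 2.62, and 1.31% of genes had a range at least as large.

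**Figure D2:**
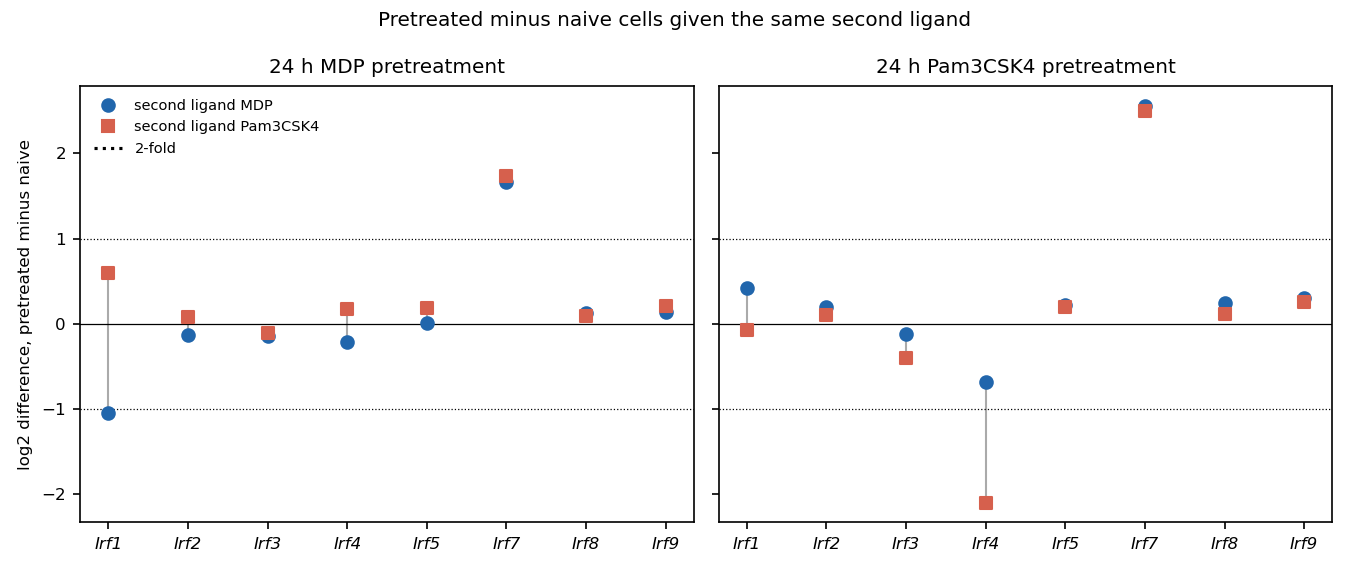
Log2 difference of pretreated minus naive cells (vertical axis) for each of the 8 genes, after MDP pretreatment (left) and Pam3CSK4 pretreatment (right); circles compare cells given MDP as second ligand and squares cells given Pam3CSK4, each from 1 pair of arrays, and dotted lines mark 2-fold. Irf7 is past 2-fold 4 times with circle and square almost on each other, Irf1 lies at -1.04 and 0.60 after MDP, and the Irf4 points after Pam3CSK4 rest on values below the array median, so that they stand for bounds of -0.14 and -1.23.

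The genes whose pattern over the 7 arrays was closest to that of Irf7 were looked for by the root mean square difference of values centred on each gene's own mean, over the 11729 other genes with a mean above the mean of the array medians. Oas3, an oligoadenylate synthetase that makes the activator of an antiviral ribonuclease, was closest at 0.08. It ran from 9.22 in unstimulated cells through 10.84 and 11.05 after MDP to 11.71 and 11.83 after Pam3CSK4. The helicase gene Ddx60 (0.21), Ifi209 (0.23), Phf11d (0.24) and Ms4a4c (0.24) followed. With 7 arrays this is a description of likeness.

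Irf9, the DNA-binding subunit of ISGF3, covered a smaller range of 0.79 and was past 2-fold in no comparison. Its level was 9.53 in unstimulated cells, 10.01 and 10.05 in naive cells with MDP and with Pam3CSK4, 10.15 and 10.25 after MDP pretreatment, and 10.32 and 10.30 after Pam3CSK4 pretreatment. The unstimulated array was lowest and the other 6 lay within a narrow band above it. In naive cells the difference from unstimulated was 0.49 with MDP, a size reached by 4.79% of genes, and 0.52 with Pam3CSK4, reached by 12.3%. Between pretreated and naive cells given the same ligand Irf9 differed by 0.14 to 0.30.

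Stat2, the partner of Irf9 in ISGF3, was 7.56 in unstimulated cells, 8.11 with MDP and 8.39 with Pam3CSK4 in naive cells. After MDP pretreatment it was 8.69 under MDP and 9.29 under Pam3CSK4, and after Pam3CSK4 pretreatment 10.31 and 10.35. Under MDP, Stat2 after Pam3CSK4 pretreatment was therefore 2.20 above naive cells.

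Among 20 measured target genes of ISGF3, 18 were at least 2-fold higher after Pam3CSK4 pretreatment than in naive cells given MDP, and 17 of 20 under Pam3CSK4, with list medians of 1.62 and 1.41. After MDP pretreatment 4 of 20 were 2-fold higher under MDP and 10 of 20 under Pam3CSK4, with medians of 0.46 and 0.93. The shares of all genes 2-fold higher were 2.14% and 2.41% after Pam3CSK4 pretreatment, and 0.385% and 0.297% after MDP pretreatment. The median over all genes lay between -0.03 and 0.03 in the 15 comparisons. Isg20, an exonuclease active on viral RNA, was 3.54 above naive cells under MDP after Pam3CSK4 pretreatment, and Oasl1 was 3.09 above. Some of these target genes were also 2-fold higher in naive cells after 3 h. With MDP 8 of 20 were 2-fold higher than unstimulated, beside 0.583% of all genes, among them Ifit1 (1.81), Ifit2 (1.55) and Ifit3 (1.40), which bind viral RNA or block its translation. With Pam3CSK4 3 of 20 were, beside 2.27% of all genes, with Ifit1 at 1.51, Mx1 at 1.25 and Ifit2 at 1.24. On the same arrays Irf7 differed from unstimulated by 0.06 and 0.08. These comparisons share the naive arrays, and each is given for its own values.

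**Figure D3:**
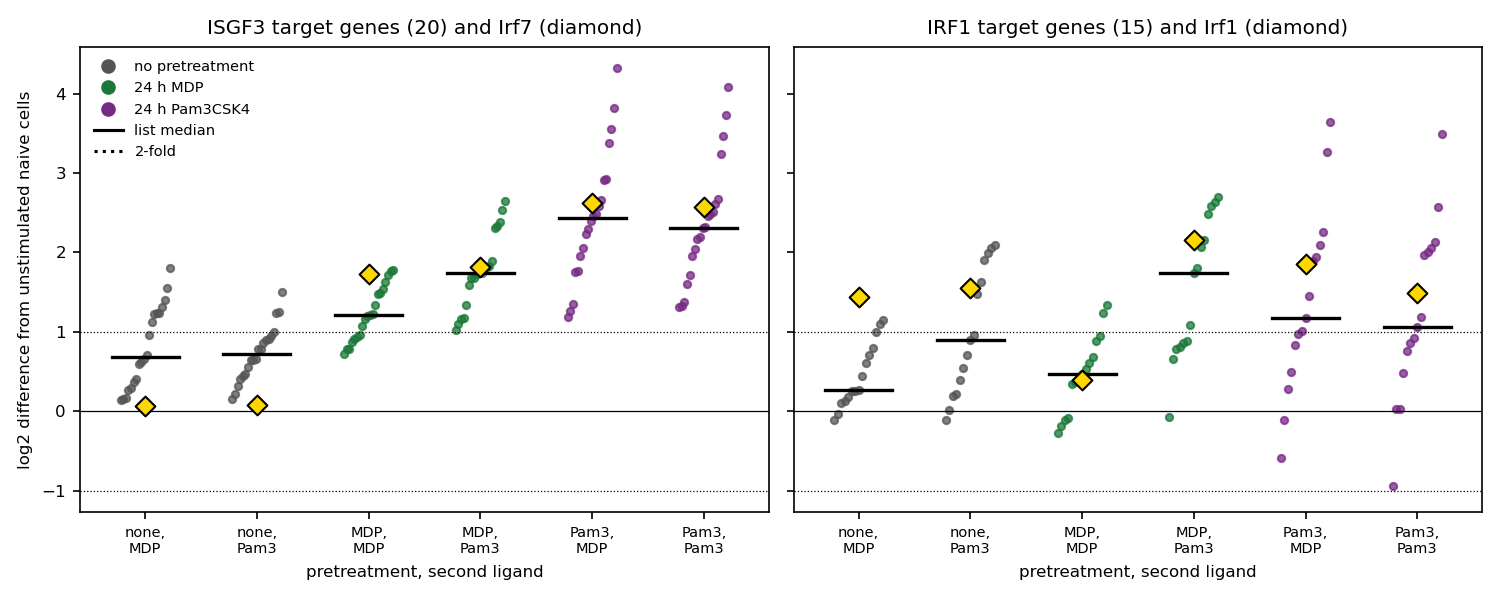
Log2 difference from unstimulated naive cells (vertical axis) for 20 ISGF3 target genes with Irf7 as diamond (left) and 15 IRF1 target genes with Irf1 as diamond (right), in the 6 other groups; each dot is 1 gene on 1 array and black bars are list medians. Irf7 lies near 0 in naive cells, where the ISGF3 list has medians of 0.68 and 0.72, and at 2.62 and 2.57 after Pam3CSK4 pretreatment; Irf1 lies at 1.43 and 1.55 in naive cells and at 0.39 in MDP before MDP.

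Among the 5 measured interferon genes, Ifnb1 covered the widest range, 2.17, and lay above the array median on 5 of the 7 arrays. This gene, which encodes interferon beta, was 5.31 in unstimulated cells, 5.59 and 5.70 in naive cells with MDP and with Pam3CSK4, 5.10 and 6.15 after MDP pretreatment, and 7.27 and 6.58 after Pam3CSK4 pretreatment. It was highest in Pam3CSK4 before MDP, at least 1.77 above unstimulated. It was the 1 of the 5 at least 2-fold higher there, beside 2.78% of all genes. Ifna4, Ifna2 and Ifng lay below the array median on all arrays, and Ifna1 lay above it on all 7, between 6.47 and 6.69. Among 7 receptor subunits and their kinases, Jak2 (2.69) and Ifnar1 (1.02) were 2-fold higher in naive cells with Pam3CSK4 than unstimulated, beside 2.27% of all genes. With MDP 0 of 7 were, beside 0.583%.

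Irf1, an early transcriptional activator of antigen processing and guanylate binding protein genes, was higher in naive cells after 3 h with either ligand. Its level was 9.74 in unstimulated cells, 11.18 with MDP and 11.30 with Pam3CSK4. It was 10.14 in MDP before MDP and 11.90 in MDP before Pam3CSK4, and 11.60 and 11.23 in cells pretreated with Pam3CSK4 and then given MDP and Pam3CSK4. The unstimulated array and that of MDP before MDP were the lowest 2, and the other 5 lay above them by more than 1.

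In naive cells Irf1 was 2.70-fold higher with MDP and 2.94-fold higher with Pam3CSK4 than unstimulated, both short of the 3-fold used in the study for induction. With MDP it was the 1 member 2-fold higher, beside 0.583% of all genes. After MDP pretreatment, a second dose of MDP left Irf1 2.06-fold lower than a first dose (-1.04), beside 0.291% of genes at least 2-fold lower. With the arrays centred on their medians the difference was -0.98, short of 2-fold. Without that centring, Irf1 in MDP before MDP was 1.31-fold above unstimulated. The same pretreatment followed by Pam3CSK4 gave the highest Irf1 of the 7 arrays, 4.44-fold over unstimulated and 1.51-fold over naive cells with Pam3CSK4. Within MDP-pretreated cells Irf1 was thus 3.39-fold higher under Pam3CSK4 than under MDP, whereas it differed by 0.12 between the ligands in naive cells.

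After Pam3CSK4 pretreatment Irf1 stayed near its level in naive stimulated cells. It was 0.42 above naive cells under MDP, a size reached by 16.1% of genes, and -0.07 from naive cells under Pam3CSK4, a size reached by 70.5%. Over unstimulated cells it was 3.61-fold higher with MDP and 2.80-fold with Pam3CSK4 as second ligand. Under MDP it was 2.75-fold higher after Pam3CSK4 than after MDP pretreatment and was the 1 member 2-fold higher, beside 1.91% of genes, with 0 members and 2.06% of genes 2-fold lower. For comparison, 5 genes of the ligand response (Acod1, Il1b, Cxcl3, Olr1 and Socs3) were set against naive cells given the same second ligand. In Pam3CSK4 before Pam3CSK4 3 of 5 were 2-fold lower, beside 2.30% of all genes, and in MDP before MDP 4 of 5, beside 0.291%. In Pam3CSK4 before MDP 4 of 5 were 2-fold higher and 1 was lower, beside 2.14% and 1.71%. In MDP before Pam3CSK4 0 of 5 were higher or lower, beside 0.297% and 0.022%. Socs3, an inhibitor of cytokine signalling on that list, was 7.21 in MDP before MDP and 9.45 in naive cells with MDP.

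The genes closest in pattern to Irf1 were Nod1, the receptor for another peptidoglycan fragment, at 0.18, then Igsf6 (0.21), Mxd1 (0.23), the chemokine gene Cxcl16 (0.24) and the adenylate kinase gene Ak4 (0.24). Nod1 was 7.60 in unstimulated cells, 8.63 and 8.98 in naive cells with MDP and with Pam3CSK4, 7.99 and 9.40 after MDP, and 9.37 and 9.22 after Pam3CSK4. Like Irf1, it was lowest in unstimulated cells and next lowest in MDP before MDP.

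Of 15 measured IRF1 target genes, 2 were at least 2-fold higher in naive cells with MDP than unstimulated and 6 with Pam3CSK4, beside 0.583% and 2.27% of all genes, with list medians of 0.27 and 0.90. The inhibitory ligand Cd274 was at 1.15 and 2.09, and the guanylate binding protein gene Gbp3 at 0.99 and 2.00. In MDP before MDP 0 of 15 were 2-fold lower than in naive cells with MDP, a count near the 0.291% of all genes, and the list median was 0.10. On that pair of arrays Vcam1, an adhesion molecule, was at -0.69, Cd274 at -0.47, and Il18bp, which neutralises interleukin-18, at 0.98. After Pam3CSK4 pretreatment 7 of 15 were 2-fold higher under MDP and 4 of 15 under Pam3CSK4, beside 2.14% and 2.41%, while Vcam1 was -2.56 below naive cells under Pam3CSK4. Il18bp differed from unstimulated little in naive cells (8.85 and 8.90 against 8.89) and stood at 9.84 and 9.97 after MDP and 10.77 and 10.89 after Pam3CSK4.

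Promoter sequences from RefSeq (GRCm38.p6) were searched for known elements of these pathways, since Irf1 and Irf7 followed different steps of the treatment. The table held a window of 250 bases before to 50 after the start for all 8 members, 11 windows in all. The elements searched on both strands, with 0 mismatches, were the interferon-stimulated response element (the letters GAAA, any 2 bases, GAAA), the shorter IRF element AANNGAAA that overlaps it, the STAT element GAS (TTCNNNGAA) and the NF-kB consensus site. Of 32851 windows 3.44% held the first, 23.9% the IRF element, 8.30% GAS and 8.46% the NF-kB site. Matches were found in Irf1, Irf2 and Irf8, for Irf1 and Irf8 in 1 of their 2 windows each (the other start had none), and these stretches are shown because they put a gene that was higher after 3 h beside a pair of genes that stayed flat. All lie directly before the start site and read 5′ to 3′ on the plus strand, with GAS, the response element and the NF-kB site in capitals.
Irf1, chr11:53769914-53770013: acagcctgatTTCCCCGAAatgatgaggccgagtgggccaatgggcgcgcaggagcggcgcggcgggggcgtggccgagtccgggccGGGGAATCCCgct
Irf2, chr8:46739495-46739744: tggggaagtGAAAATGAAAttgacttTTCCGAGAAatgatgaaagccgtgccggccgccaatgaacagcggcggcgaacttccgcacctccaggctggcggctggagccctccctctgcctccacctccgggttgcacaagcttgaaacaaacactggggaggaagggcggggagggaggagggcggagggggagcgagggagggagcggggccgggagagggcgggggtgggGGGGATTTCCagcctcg
Irf8, chr8:120736178-120736357: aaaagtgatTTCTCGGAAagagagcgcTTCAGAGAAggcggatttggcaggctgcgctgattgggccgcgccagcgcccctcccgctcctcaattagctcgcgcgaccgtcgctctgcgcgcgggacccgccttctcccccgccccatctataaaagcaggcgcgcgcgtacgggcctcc

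In Irf1 the GAS match TTCCCCGAA began 90 bases before the start and the NF-kB match GGGGAATCCC 13 bases before it. The Irf2 stretch held a response element (GAAAATGAAA, 241 bases before the start), a GAS match (224 bases) and an NF-kB match (GGGGATTTCC, 17 bases), and Irf8 held GAS matches 171 and 153 bases before its start. The windows of Irf3, Irf4, Irf5, Irf7 and Irf9 held none of the 4, which says only that these letters are not in these windows. Irf2 and Irf8, which carry matches, were near their unstimulated level on all arrays, as described next, so a match alone did not separate the members past 2-fold from the others. A match is a description of the letters, and binding was not measured.

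Irf2, Irf3, Irf5 and Irf8 were past 2-fold in 0 of the 15 comparisons. Irf2, the antagonist of Irf1 at shared sites, ran from 8.56 in MDP before MDP to 8.88 in Pam3CSK4 before MDP, with 8.63 in unstimulated cells and a median of 8.69. Its range of 0.32 was met or exceeded by 62.9% of genes. Its probe set carries the suffix for probes shared by several transcripts.

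Irf8, a lineage factor of macrophages and dendritic cells, was 11.38 in unstimulated cells, 11.19 and 11.37 in naive cells with MDP and with Pam3CSK4, 11.31 and 11.45 after MDP, and 11.43 and 11.48 after Pam3CSK4. The range was 0.29, and 68.8% of genes had one at least as large. Its second probe set covered 0.39 and was likewise lowest in naive cells with MDP, at 10.82.

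Irf5 was 11.12 in unstimulated cells and ran from 11.10 in naive cells with Pam3CSK4 to 11.41 in Pam3CSK4 before MDP, a range of 0.31. The second probe set ran from 6.57 to 6.81, and was lowest where the first was highest. Of 6 cytokine genes that Irf5 is known to act on, Il6, Tnf, Il1b and Il12b had ranges over the 7 arrays from 3.21 (Il12b) to 7.52 (Il1b). Il12b lay above the array median on 2 of the arrays and Il6 on 4, so the low ends of their ranges were close to background. Il12a and Il23a had ranges of 0.21 and 0.51 and lay below the array median on all arrays. Il6 was 3.41 in unstimulated cells and 9.84 in naive cells with Pam3CSK4, Tnf 9.32 and 12.89, and Il1b 6.67 and 14.17. In Pam3CSK4 before Pam3CSK4, 3 of the 6 were 2-fold lower than in naive cells with Pam3CSK4, beside 2.30% of all genes, and Irf5 was 0.19 higher. Il12b, 1 of these 3, was at 4.06 in Pam3CSK4 before Pam3CSK4, below the array median.

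Irf3, which is held inactive in the cytoplasm until it is phosphorylated, ran from 9.80 in Pam3CSK4 before Pam3CSK4 to 10.20 in naive cells with Pam3CSK4, with 10.08 in unstimulated cells. That pair gave the largest difference of these 4 genes between pretreated and naive cells, -0.40. The probe set used is marked as open to cross-hybridisation, and the next brightest gave 7.88 and 8.27 on the same 2 arrays, again the lowest and the highest. The other 2 Irf3 probe sets ran from 6.01 to 6.52 and from 4.89 to 5.28, the latter below the array median throughout. Among 12 measured adaptors and kinases that act upstream of these factors, Ikbke, a kinase of Irf3 and Irf7, was 1.64 above unstimulated in naive cells with Pam3CSK4 and was the 1 past 2-fold, while Tbk1, its relative, ran from 11.17 to 11.64 over all arrays. With MDP 0 of 12 were past 2-fold and Ikbke was at 0.64. The shares of all genes 2-fold higher and lower were 2.27% and 1.95% with Pam3CSK4, and 0.583% and 0.17% with MDP.

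**Figure D4:**
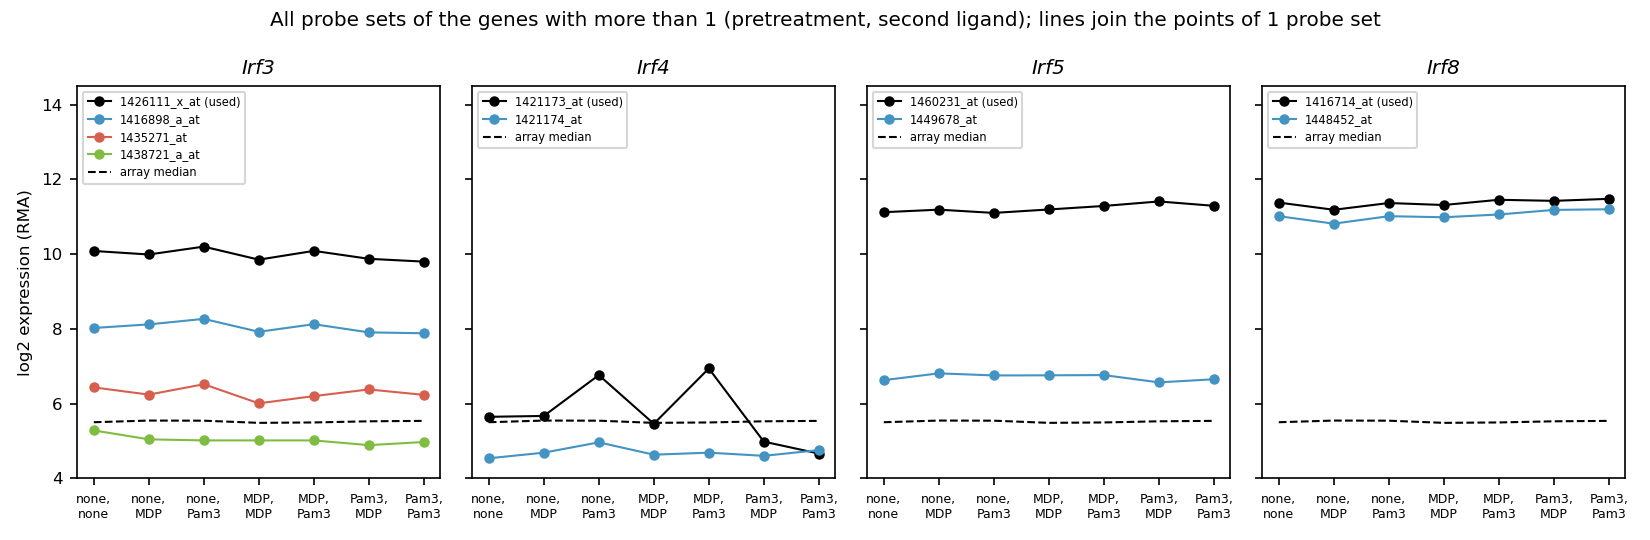
Log2 expression (vertical axis) of every probe set of Irf3, Irf4, Irf5 and Irf8 on the 7 arrays (pretreatment and second ligand on the horizontal axis); lines join the points of 1 probe set and the dashed line is the array median. The Irf3, Irf5 and Irf8 probe sets are flat, and of the 2 for Irf4 the one used reaches 6.76 and 6.94 on 2 arrays while the other stays between 4.54 and 4.96, below the median.

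Irf4, a factor of alternative macrophage activation and of lymphocytes, lay close to the array median. On the probe set used it differed by second ligand in naive and in MDP-pretreated cells. Its level was 5.65 in unstimulated cells, 5.67 in naive cells with MDP and 6.76 in naive cells with Pam3CSK4. After MDP it was 5.46 under MDP and 6.94 under Pam3CSK4, and after Pam3CSK4 it was 4.98 and 4.66. It lay above the array median on 4 of the 7 arrays, and the 2 arrays of Pam3CSK4 given to naive or MDP-pretreated cells stood apart from the rest.

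In naive cells Irf4 was 2.17-fold higher with Pam3CSK4 than unstimulated and 2.13-fold higher than with MDP. After MDP pretreatment it was at least 2.74-fold higher under Pam3CSK4 than under MDP. The shares of all genes at least 2-fold higher were 2.27%, 1.40% and 2.41% in these 3 comparisons. At least 2-fold lower, where 0 of 8 members lay, were 1.95%, 0.709% and 1.42%. Pam3CSK4 before Pam3CSK4 stood at least 2.34-fold below naive cells with Pam3CSK4 (-1.23 or lower, beside 2.30% of genes 2-fold lower) and at least 2.64-fold below MDP before Pam3CSK4 (beside 2.41%, with 0 members and 1.34% of genes 2-fold higher). The second Irf4 probe set, below the array median on every array, differed by 0.43, 0.28, 0.05, -0.21 and 0.07 in those 5 comparisons. With the mean of both probe sets the first 3 were 0.77, 0.68 and 0.77, and with 32 added to the linear values the first 2 were 0.78 and 0.76, so these calls rest on 1 faint probe set.

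Closest to Irf4 in pattern were the small GTPase gene Rras2 (0.15), the growth factor genes Pdgfb (0.17) and Csf1 (0.18), Niban1 (0.18) and Rcl1 (0.20). In MDP before MDP and on both arrays pretreated with Pam3CSK4, Irf4 lay below the array median. The likeness on those arrays is therefore to values close to background. Pdgfb was 11.26 in unstimulated cells, 11.79 and 12.77 in naive cells, 11.15 and 12.74 after MDP, and 10.95 and 10.62 after Pam3CSK4. Batf, a known DNA-binding partner of Irf4, was 8.60 in unstimulated cells, 9.18 with MDP and 11.58 with Pam3CSK4 in naive cells. It was 8.74 and 11.56 after MDP and 10.47 and 10.45 after Pam3CSK4. Batf was thus high with Pam3CSK4 in naive and MDP-pretreated cells, as Irf4 was, but unlike Irf4 stayed above unstimulated after Pam3CSK4 pretreatment. Of the 12 measured binding partners and modifiers of the family, Batf was the 1 at least 2-fold higher in naive cells with Pam3CSK4, beside 2.27% of all genes. Irf2bp2, a corepressor that binds Irf2, was 12.06 in unstimulated cells and 11.55 in naive cells with Pam3CSK4.

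Set side by side, the members past 2-fold over unstimulated cells were Irf1 alone of 8 in naive cells with MDP, beside 0.583% of all genes. In naive cells with Pam3CSK4 they were Irf1 and Irf4, beside 2.27%. In MDP before MDP it was Irf7 alone, beside 0.39% of all genes, and in MDP before Pam3CSK4 it was Irf1, Irf4 and Irf7, beside 3.03%. In Pam3CSK4 before MDP and Pam3CSK4 before Pam3CSK4 Irf1 and Irf7 were, beside 2.78% and 2.66%. With the mean of both probe sets the Irf4 difference in naive cells with Pam3CSK4 (1.12) was 0.77, and that in MDP before Pam3CSK4 (1.29) was 0.72. Both were then short of 2-fold, as they were with 32 added to the linear values. On the second Irf4 probe set, below the array median throughout, they were 0.43 and 0.15. These 6 comparisons share the unstimulated array. On the lower side 0 of 8 members were past 2-fold in these 6 comparisons, beside 0.17%, 1.95%, 0.0385%, 1.8%, 2.59% and 2.29% of all genes in the order given, with Irf4 in Pam3CSK4 before Pam3CSK4 below the array median and its difference bounded at -0.11. Without the bound, centring on array medians or repeated quantile normalization placed that difference at -1.02, past 2-fold.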

How the data were processed

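RNA of 7 cultures was hybridised to 1 Affymetrix array each. The deposited values are log2 expression per probe set, which the authors obtained by RMA (affy), as the submitters' processing notes state. Versions, probe set definitions and the arrays normalized together are not given in the sources used here. Values ran from 2.95 to 15.1. The platform table paired 34945 of 45101 probe sets with 1 symbol (34741 of them matched RefSeq genes), 932 with several and 9160 with none, besides 64 controls. Each of 18193 genes was represented by its brightest probe set (9010 had several).

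Differences between arrays were counted at 2-fold in 15 comparisons, with no p-value, since precision is limited by 1 array per group. Where 1 value lay below its array median a bound from that median was computed. Named genes are the 8 members, up to 4 members per list and comparison with the largest differences, 5 genes closest in pattern to each member with a range of at least 1, and 5 response genes. The members and lists were chosen with earlier results of these data known. Some genes of the lists are not reported here, and counts are over the measured genes. The calculation was tested on simulated data whose noise came from the 2 arrays pretreated with Pam3CSK4, which differed by 2-fold in 1 gene. That test checks the calculation and gives no error rate for the other comparisons. Alternatives were centring on array medians or 14 housekeeping genes, quantile normalization, the mean of probe sets, other probe sets, adding 32 to linear values, a filter on low values and other thresholds. Python 3.11.15, numpy 2.4.6, pandas 2.3.3 and matplotlib 3.10.9 were used.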

Additional observations from a re-analysis of the deposited data

Results flagged for a closer look

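Irf1 moved in opposite directions under the same contrast in 2 cases, each resting on 4 single arrays, and neither difference was tested. MDP pretreatment went with a lower Irf1 when MDP was the second ligand (-1.04) and a higher one when Pam3CSK4 was (0.60), a gap of -1.64. Exchanging MDP for Pam3CSK4 as second ligand gave a higher Irf1 after MDP pretreatment (1.76) and a lower one after Pam3CSK4 pretreatment (-0.37), a gap of 2.13.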

How the results depend on the processing

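No paired analysis was possible because each group had 1 array and every label carries the same replicate number. The counts of members at least 2-fold higher or lower were recomputed under 9 settings in 15 comparisons and both directions, and 246 of these values were within 1.5 times the reported count and 24 were not. Counts of 0 that stayed at 0 are among the 246. So is the loss of Irf4, with the mean of probe sets and with 32 added to the linear values, from the 3 members higher in MDP before Pam3CSK4 over unstimulated. Members with 1 probe set could not change under the probe set settings. At a 3-fold threshold the higher counts were 0 in naive cells with MDP and 0 with Pam3CSK4 over unstimulated, 1 in Pam3CSK4 before Pam3CSK4 over unstimulated, 0 for Pam3CSK4 over MDP in naive cells, 0 for Pam3CSK4 over MDP pretreatment under MDP and 1 for MDP before Pam3CSK4 over MDP before MDP, and the lower count in MDP before MDP against naive MDP was 0. At 1.5-fold the higher counts were 2 in MDP before MDP over unstimulated, 2 in MDP before Pam3CSK4 over naive Pam3CSK4, 2 for Pam3CSK4 over MDP pretreatment under MDP and 1 under Pam3CSK4. The lower counts were then 1 in Pam3CSK4 before MDP against unstimulated and against naive MDP, 1 in Pam3CSK4 before Pam3CSK4 against unstimulated and 2 against MDP before Pam3CSK4. With the mean of probe sets, and with 32 added, the higher count for naive Pam3CSK4 was 1 over unstimulated and 0 over naive MDP, and with the mean it was 1 for MDP before Pam3CSK4 over MDP before MDP; Irf4 was the gene lost each time. Centring on array medians gave 0 lower members in MDP before MDP against naive MDP (Irf1 at -0.98) and 1 in Pam3CSK4 before Pam3CSK4 against unstimulated (Irf4 at -1.02), as did quantile normalization for the latter (-1.02). Centring on housekeeping genes, which moved the median of all genes by up to 0.15, gave 2 higher for Pam3CSK4 over MDP pretreatment under MDP, with Irf7 at 1.00. For Irf4 in Pam3CSK4 before Pam3CSK4 against MDP before Pam3CSK4, the second probe set gave 0.0689 in place of -2.28 (bound -1.40), but it lay below the array median on both arrays, so its sign has no weight. Apart from the thresholds, the cause was not tested. The 4 Irf7 differences between pretreated and naive cells stayed past 2-fold under all scaling and low-value settings. The probe set settings could not test this, since Irf7 has 1 probe set.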

Other observations

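Genes that mark alternatively activated macrophages, a state in which Irf4 is known to act, did not move together. Arg1, the arginase gene, was 5.67 in unstimulated cells, 5.79 and 5.82 in naive cells with MDP and with Pam3CSK4, 7.06 and 5.83 after MDP pretreatment under MDP and Pam3CSK4, and 11.13 and 10.90 after Pam3CSK4 pretreatment. The mannose receptor gene Mrc1 was 12.85 in unstimulated cells and 11.12 and 11.14 after Pam3CSK4 pretreatment, and Kdm6b, a histone demethylase gene, was 8.10 in unstimulated cells, 9.84 in naive cells with Pam3CSK4 and 8.15 in Pam3CSK4 before Pam3CSK4. Of the 7 genes of that list 1 was 2-fold higher and 3 were 2-fold lower in Pam3CSK4 before Pam3CSK4 than in naive cells with Pam3CSK4, beside 2.41% and 2.30% of all genes.

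The 19 genes at least 2-fold higher in all 4 comparisons of pretreated with naive cells included, besides Irf7, the antiviral genes Oas3, Oasl2, Isg20, Zbp1 and Ddx60, and also Slfn1, Slfn4, Plac8, Ifitm6 and Gbp6, a set named after its values were seen. Pml, which organises nuclear bodies and stands on the list of IRF8 target genes, was 8.16 in unstimulated cells, 8.43 and 8.30 in naive cells with MDP and with Pam3CSK4, 8.95 and 9.31 after MDP, and 9.99 and 10.03 after Pam3CSK4, while Irf8 itself stayed within 0.29.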
